A study of Mus musculus with 16 samples.

Results

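This account concerns the 8 libraries from neuron cultures that received NP24 or Tβ10, treated as 1 group and set against the 4 vehicle libraries, out of 16 libraries in the series. The members were chosen by treatment label alone, 4 with NP24 and 4 with Tβ10, and no measured value entered the choice. The purpose of pooling was to find smaller changes that both peptides share, so the side of control on which each peptide fell was checked for every gene. The remaining 4 libraries, from cultures given Tβ4, serve only as a reference in a later paragraph.

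All cultures were primary neurons from postnatal day 0 brains of C57BL/6 mice, and the controls received Dulbecco's phosphate-buffered saline (DPBS), the vehicle. The series text describes the added peptides as derived from the subcommissural organ, a gland of the ventricular roof that secretes into the cerebrospinal fluid. Tβ10 is a β-thymosin, a family of small peptides that bind actin monomers, and no description of NP24 beyond its name is used here. Dose and duration of exposure are not given in the sources used here. The labels do not say whether replicates were separate cultures or litters, so each p-value measures the spread between these libraries, which may be technical.

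Several gene programmes recur below. In the integrated stress response, amino acid shortage or other stress slows protein synthesis and the transcription factor ATF4 raises genes for amino acid transport and synthesis. NRF2 raises antioxidant and glutathione genes, SREBP2 raises cholesterol synthesis genes, and synaptic activity and growth factors raise immediate early genes, partly through the actin-sensing pair SRF and MRTF. Primary neuron cultures also hold some glia, microglia and mesenchymal cells, whose transcripts are measured together with those of neurons. In such bulk RNA, fewer cells of a type and less RNA per cell cannot be told apart.

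Reads in genes ranged from 11642242 to 38254320 over the 12 libraries. Neuronal markers were detected in all of them, at levels that varied widely by gene. Map2, a dendritic microtubule protein, stood at 27432 to 34640 normalized counts (read counts divided by the authors' size factor for the library). The neuronal markers Nefl and Slc17a7 stood at 161 to 395 and 90.6 to 217. Microglial Cx3cr1 stood at 1190 to 1602 and astrocytic Slc1a3 at 3302 to 5063, whereas the endothelial claudin Cldn5 reached at most 1.61. The other microglial markers were lower than Cx3cr1, with P2ry12 at 268 to 478 and C1qa at 0 to 39.1. Ribosomal RNA of mitochondria (mt-Rnr1 plus mt-Rnr2) made up 9.32 to 14.2% of reads in the controls and 4.76 to 9.53% in the peptide libraries, so this share moved with the treatment, and 1 Tβ10 library lay above the lowest control. With that share as a covariate, 2 genes remained called, Slc7a11 and Npas4, while all 531 called genes stayed on the same side of control and their median standard error rose from 0.138 to 0.221. Their median absolute log2 difference was 0.562 with the covariate and 0.637 without it, and 358 of the 531 had an unadjusted p under 0.05 with it. Members that were not called could turn: of the 25 cholesterol genes described below, 12 were positive and 13 negative with the covariate. The share and the treatment moved together in these libraries, and its part in the differences was not tested further.

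The pooled comparison asked which genes differed between the 8 peptide libraries and the 4 controls. Genes called lower included 15 of 28 of the integrated stress response, 9 of 22 NRF2 targets, 8 of 25 of cholesterol synthesis, 6 of 22 immediate early genes and 7 of 30 lysosomal genes. A smaller and more scattered set of genes was higher, among them Ajap1, Necab1, Frem2 and Aqp4. Of 23082 genes tested, 531 (2.3%) passed an adjusted p of 0.05 in limma, 210 higher (0.91%) and 321 lower (1.39%), and 3734 (16.2%) passed an unadjusted p of 0.05. Both peptides lay on the same side of control in 531 of the 531 called genes, beside 17700 of all 23082 tested (76.7%). Each peptide is compared with the same 4 controls here, so a control library that stands apart moves both peptides to the same side. The call itself also favours agreement, since peptides on opposite sides of control would shrink the pooled difference and widen its spread. The count of 531 is therefore no separate check that the peptides agree.

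Most of the changes were under 2-fold. The median absolute log2 difference of the called genes was 0.64, with 230 of 531 under 1.5-fold and 135 over 2-fold. In 370 of the 531 the peptide and control libraries did not overlap, and over all genes tested this held for 698 (3.02%), 288 with every peptide library above (1.25%) and 410 with every one below (1.78%). Fits of the single peptides called 572 of 21774 genes for NP24 (2.63%), 253 higher (1.16%) and 319 lower (1.47%), and called 139 of 21960 for Tβ10 (0.633%), 22 higher (0.1%) and 117 lower (0.533%). Scaled to equal library totals these splits were 508 higher and 256 lower for NP24 and 56 higher and 67 lower for Tβ10. Of the pooled calls, 115 were called with each peptide alone, 257 with NP24 alone, 14 with Tβ10 alone and 145 with neither (0.628% of genes tested). Pooling also ended calls: 200 of the 572 for NP24 were not called with Tβ10 added, although Tβ10 lay on the same side in all 200.

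**Figure D1:**
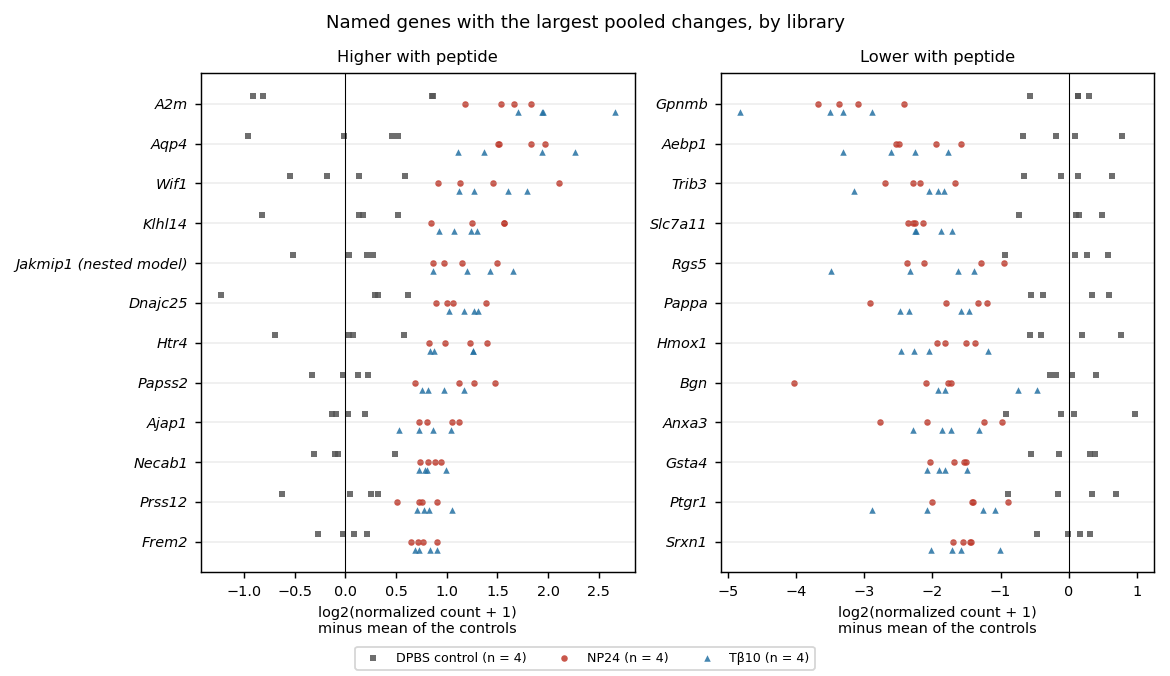
Log2 of the normalized count plus 1, minus the mean of the controls, for the 12 higher and 12 lower named genes with the largest pooled differences. Each symbol is 1 library (squares DPBS, circles NP24, triangles Tβ10), and for these genes no peptide library overlaps the controls.

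Many genes of the integrated stress response were called lower. Of 28 members tested, 15 were lower and 0 higher, beside 1.39% of all genes lower, and the difference was negative for all 28 (27 with equal library totals and 25 with the mitochondrial covariate). The list median was -0.70 on the log2 scale against -0.0037 over all genes, and was -0.61 with NP24 and -0.87 with Tβ10. Slc7a11, the cystine-glutamate exchanger that supplies cystine for glutathione, held 2479.7, 1907, 1074 and 1963 normalized counts in the controls. In the 8 peptide libraries it ran from 347 to 543 with a median of 374, below every control, a log2 difference of -2.14 (SE 0.16, adjusted p = 4.7e-08). Trib3, a pseudokinase induced late in the stress response, held 313, 127, 185 and 220.0 in the controls and ran from 21.6 to 62.6 with a median of 45.6 with peptide, a log2 difference of -2.22 (SE 0.29, adjusted p = 1.8e-04). The peptide libraries of Trib3 again all lay below the controls.

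Carriers of amino acids made up much of the rest of the list. Slc3a2, the heavy chain that partners both Slc7a11 and Slc7a5, fell from 2191, 2012, 1811 and 2401 in the controls to a range from 890.2 to 1466 with a median of 1150.1 (log2 difference -0.84, adjusted p = 2.8e-04). The cationic amino acid carrier Slc7a3 was 2.68-fold lower (log2 difference -1.37, adjusted p = 4.8e-04), and Stc2, a secreted glycoprotein of the stress response, was 2.35-fold lower (log2 difference -1.23, adjusted p = 5.7e-04). Atf4 itself and its targets Atf3 and Asns, named here after their values were seen, were also lower. Atf4 held 2054, 1437, 1381 and 1679 in the controls and ran from 758 to 1342 with a median of 1055 with peptide (log2 difference -0.60, adjusted p = 0.014). Asns, which makes asparagine, was 1.43-fold lower (log2 difference -0.53, adjusted p = 0.0098). Atf3 ran from 17.1 to 109.8 with a median of 20.9 with peptide against 117, 91.8, 92.7 and 144 in the controls (log2 difference -2.02, adjusted p = 0.0066). Its peptide library at 109.8, NP24 library 2, lay above the controls at 91.8 and 92.7. Related lists gave few calls. Among 20 cytosolic tRNA synthetases only Mars, which charges methionine tRNA, was called, and among 20 genes of the ER chaperone list only Herpud1, an ER-associated degradation factor, was called (log2 difference -0.74, adjusted p = 0.011). Without control library 1, 9 of the 28 stress response members were called lower.

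Promoter sequence was examined for the letters TGATGNAA, the core of the amino acid response element to which ATF4 binds, on both strands of the 250 bases before the RefSeq gene start (GRCm38.p6). A promoter was found for 13398 tested symbols, and 2.46% of them held a match. In the stress response list 24 members had a promoter and 7 held a match (29.2%). Of its members called lower 12 had a promoter and 3 held a match (25%), namely Slc7a11, Atf3 and Asns. Chac1, Nupr1, Pycr1 and Vldlr held a match and were not called, so a match did not mark the called members. Among genes called in either direction the shares were 11 of 230 lower (4.78%) and 2 of 134 higher (1.49%). The list consists of genes known for ATF4 control, and a match is a description of the letters, not a bound site. The stretches around the matches of the 3 lower genes are shown with the matched letters in capitals, 5′ to 3′ on the minus strand of the genome, on which all 3 genes lie.
Slc7a11 (chr3:50443632-50443719): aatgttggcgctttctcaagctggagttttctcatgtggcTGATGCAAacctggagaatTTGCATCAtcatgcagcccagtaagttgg
Atf3 (chr1:191183396-191183483): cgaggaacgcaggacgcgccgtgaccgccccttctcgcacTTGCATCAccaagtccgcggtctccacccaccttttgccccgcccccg
Asns (chr6:7693210-7693272): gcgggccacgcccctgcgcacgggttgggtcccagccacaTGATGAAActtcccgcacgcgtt
The Slc7a11 stretch holds 2 matches, 1 on each strand, the first starting 66 bases before the gene start. The Atf3 match starts 110 and the Asns match 23 bases before the start.

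Some antioxidant genes were called lower. Of 22 NRF2 targets tested, 9 were lower and 0 higher, 9 with NP24 alone and 6 with Tβ10 alone, with a list median of -0.44. Srxn1, which repairs overoxidized peroxiredoxins, held 1069, 850.1, 622 and 965 normalized counts in the controls and ran from 211 to 427 with a median of 289 with peptide, a log2 difference of -1.56 (SE 0.16, adjusted p = 4.8e-06). Hmox1, the heme-degrading oxygenase, ran from 48.8 to 119.8 with a median of 73.6 with peptide against 465, 206, 185 and 313 (log2 difference -1.83, adjusted p = 3.4e-04). All 8 peptide libraries of both genes lay below the 4 controls. The glutathione transferase Gsta4 was 3.48-fold lower and the efflux pump Abcc4 1.88-fold lower (log2 difference -1.76, adjusted p = 4.8e-05, and log2 difference -0.91, adjusted p = 5.6e-04). Slc7a11 is a member of this list too. Ptgr1, a prostaglandin reductase outside the list, was 3.14-fold lower (log2 difference -1.63, adjusted p = 0.014), and the call survived leaving out a library in 10 of 12 cases. The antioxidant response element core TGACNNNGC matched 5 of 17 promoters of the list (29.4%) and 13.7% of all promoters. The list consists of genes known for NRF2 control, so a higher share in it was to be found whatever the calls. Of its members called lower 6 had a promoter and 3 held a match. Among all called genes the shares were 36 of 230 lower (15.7%) and 22 of 134 higher (16.4%).

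Some sterol synthesis genes were called lower. All 25 cholesterol genes tested had a negative difference (13 with the mitochondrial covariate), 8 were called lower, and the list median was -0.33, -0.34 with NP24 and -0.32 with Tβ10. Lss, lanosterol synthase, held 2595, 2230.2, 1702 and 2497 normalized counts in the controls and ran from 1371 to 1593 with a median of 1453 with peptide, a log2 difference of -0.62 (SE 0.10, adjusted p = 0.0015). The sterol carrier Stard4 was 1.57-fold lower, the sterol reductase Tm7sf2 1.47-fold and Msmo1, a sterol oxidase, 1.40-fold, with adjusted p from 0.0078 to 0.014. These calls were fragile to 1 library, since 1 of the 25 was called without control library 1 and 3 without control library 4. Of 12 fatty acid synthesis genes, 2 were lower, Acly and Acss2, which both supply cytosolic acetyl-CoA (log2 difference -0.48, adjusted p = 0.0027, and log2 difference -0.60, adjusted p = 0.0066). Acly ran from 2946 to 3709.9 with a median of 3306 with peptide against 4603, 4730.1, 4266 and 4744 in the controls, with no overlap. Of 24 glycolysis and hypoxia genes, 4 were lower, Vegfa, Slc2a1, Gpi1 and Hk2. Slc2a1, the glucose carrier GLUT1, held 747, 659, 490.0 and 732 in the controls and ran from 158 to 355 with a median of 289 with peptide (log2 difference -1.23, adjusted p = 3.2e-04), and the angiogenic factor Vegfa was 1.80-fold lower (log2 difference -0.85, adjusted p = 2.1e-04).

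Several genes that respond to synaptic activity were called lower. Of 22 immediate early genes, 6 were called lower and 0 higher, 3 had a positive difference, and the list median was -0.43, -0.31 with NP24 and -0.55 with Tβ10. Npas4, a neuron-restricted factor induced by calcium entry, held 699, 531, 894 and 656 normalized counts in the controls and ran from 167 to 294 with a median of 240.1 with peptide, a log2 difference of -1.53 (SE 0.15, adjusted p = 4.4e-06). Egr1 held 1696, 1778, 1765 and 1967 and ran from 362 to 844 with a median of 692 with peptide, a log2 difference of -1.55 (SE 0.18, adjusted p = 3.9e-05). In both genes every peptide library lay below every control. Btg2, an antiproliferative gene, was 1.87-fold lower, the small MAF protein Maff 2.17-fold and Ier2 2.31-fold, with adjusted p from 8.9e-04 to 0.018. Fos, named after its values were seen, ran from 124 to 331 with a median of 275 with peptide against 398, 311, 413 and 475 and missed the threshold (log2 difference -0.70, adjusted p = 0.057). Of 16 feedback genes of the MAP kinase pathway, 2 were lower, the Sprouty gene Spry2 and the phosphatase Dusp1 (log2 difference -0.50, adjusted p = 0.029, and log2 difference -0.60, adjusted p = 0.032), and neither passed when libraries were scaled to equal totals.

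Srf and some of its cytoskeletal targets were called lower. Of 18 SRF and MRTF targets tested, 7 were lower and 0 higher, with a list median of -0.53. Srf held 656, 570.2, 637 and 697 normalized counts in the controls and ran from 358 to 514 with a median of 424 with peptide, a log2 difference of -0.59 (SE 0.12, adjusted p = 0.0081), with no overlap. The matrix protein Ccn1 was 2.39-fold lower (log2 difference -1.25, adjusted p = 0.0061), the focal adhesion protein Zyx 1.64-fold (log2 difference -0.70, adjusted p = 0.0087) and the actin crosslinker Flna 1.36-fold (log2 difference -0.45, adjusted p = 0.019). Acta2, smooth muscle actin, ran from 5.80 to 49.9 with a median of 15.8 with peptide against 177, 44.9, 159.6 and 115, and 2 peptide libraries reached the lowest control (log2 difference -2.70, adjusted p = 0.0066). Part of this list is made by mesenchymal cells, whose own markers moved the same way as given in a later paragraph, and their part in the result was not tested. Of the 18, 2 were called without control library 1 and 3 without control library 4. The CArG box, the element that SRF binds, matched 5 of 15 promoters of the list (33.3%) and 1.45% of all promoters. This list too consists of known targets, and among all called genes the shares were 6 of 230 lower (2.61%) and 2 of 134 higher (1.49%). Of the members called lower 6 had a promoter, and 1 of these, that of Srf, held a match. The stretch of the Srf promoter that holds 2 such matches, in capitals, is shown 5′ to 3′ on the minus strand; Srf is a known target of its own product.
Srf (chr17:46556195-46556284, GRCm38.p6): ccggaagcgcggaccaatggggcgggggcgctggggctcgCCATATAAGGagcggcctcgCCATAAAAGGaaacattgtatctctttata

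Some growth arrest and lysosomal genes were also called lower. Of 25 p53 targets and apoptosis genes, 7 were lower and 0 higher (list median -0.29). Cdkn1a, the cell cycle inhibitor p21, held 786, 416, 384 and 456 normalized counts in the controls and ran from 214 to 306 with a median of 248 with peptide, a log2 difference of -0.97 (SE 0.16, adjusted p = 0.002). The exonuclease gene Aen was 1.56-fold lower, Gadd45g, a stress-induced growth arrest gene, 1.94-fold, Zmat3 1.38-fold and Bbc3, the proapoptotic PUMA, 1.72-fold, with adjusted p from 0.0012 to 0.015. Among 30 lysosomal genes 7 were lower and 0 higher (list median -0.35). Gpnmb, a transmembrane glycoprotein of lysosomes and phagocytes, had the largest fall of the 12 lower genes named for size. It held 556, 495, 304 and 494 in the controls and ran from 15.01 to 83.5 with a median of 43.5 with peptide, a log2 difference of -3.39 (SE 0.31, adjusted p = 1.1e-06). The protease Ctsd was 2.15-fold lower (log2 difference -1.11, adjusted p = 2.8e-04) but shares 34.4% of its exonic bases with another gene, and Lamp2, Cd63 and Ctsa were 1.46-fold, 1.88-fold and 1.43-fold lower. Without control library 1, 3 of the p53 list and 2 of the lysosomal list were called, and without control library 4 these counts were 4 and 3.

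Most fibroblast markers tested were called lower. Of 15 fibroblast and meningeal genes tested, 9 were lower and 1, Fbn1, higher (log2 difference 0.40, adjusted p = 0.031), with a list median of -1.05. Col3a1, fibrillar collagen, held 131, 56.2, 72.5 and 118 normalized counts in the controls and ran from 1.71 to 19.97 with a median of 8.98 with peptide, a log2 difference of -3.36 (SE 0.54, adjusted p = 0.0011). Aebp1, a matrix protein, was 5.18-fold lower, Col1a1 5.95-fold, Sparc 2.03-fold and Pdgfrb, the receptor of mural cells and fibroblasts, 1.94-fold, with adjusted p from 8.8e-04 to 0.0042. The summed level of the 18 genes of this list was 3903 to 4873 in the controls and 3141 to 3605 with peptide, so the groups did not overlap. Without control library 4, 5 were called lower, and Fbn1 was not called when any 1 of the controls was left out. Among its defining markers, Lum was at 0 in every control and Dcn at most 10.8 in any of the 12 libraries. Other named matrix and mural genes followed, with Bgn 2.99-fold, Rgs5 3.73-fold, the secreted metalloprotease Pappa 3.67-fold and the annexin Anxa3 3.64-fold lower.

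Of 15 microglial genes tested, 14 had a negative difference and 4 were called lower, Lyz2, Cd68, Laptm5 and Ctss, and the list median was -1.31. Lyz2, lysozyme, held 146, 59.9, 73.3 and 143 normalized counts in the controls and ran from 4.82 to 25.5 with a median of 19.7 with peptide, a log2 difference of -2.65 (SE 0.45, adjusted p = 0.002). Cd68, a lysosomal protein of phagocytes, was 2.49-fold lower (log2 difference -1.29, adjusted p = 0.0035). Cx3cr1, the fractalkine receptor of microglia, ran from 1190 to 1602 with peptide against 1229 to 1379 in the controls, with overlap. The list summed to 2881 to 3424 in the controls and 2067 to 3245 with peptide, and C1qa, Aif1 and Tyrobp were at 0 in at least 1 peptide library. Endothelial and pericyte genes gave 2 of 9 lower, Rgs5 and Pdgfrb, the interferon list 3 of 14 lower, Stat2, H2-D1 and B2m, and the oligodendrocyte list 2 of 15 lower, Mbp and Olig2. Leaving out control library 1 gave calls for 2 of the microglial list, 1 of the endothelial list and 0 of the interferon and oligodendrocyte lists. How far these cells account for the lower stress, SRF and lysosomal genes was not tested.

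**Figure D2:**
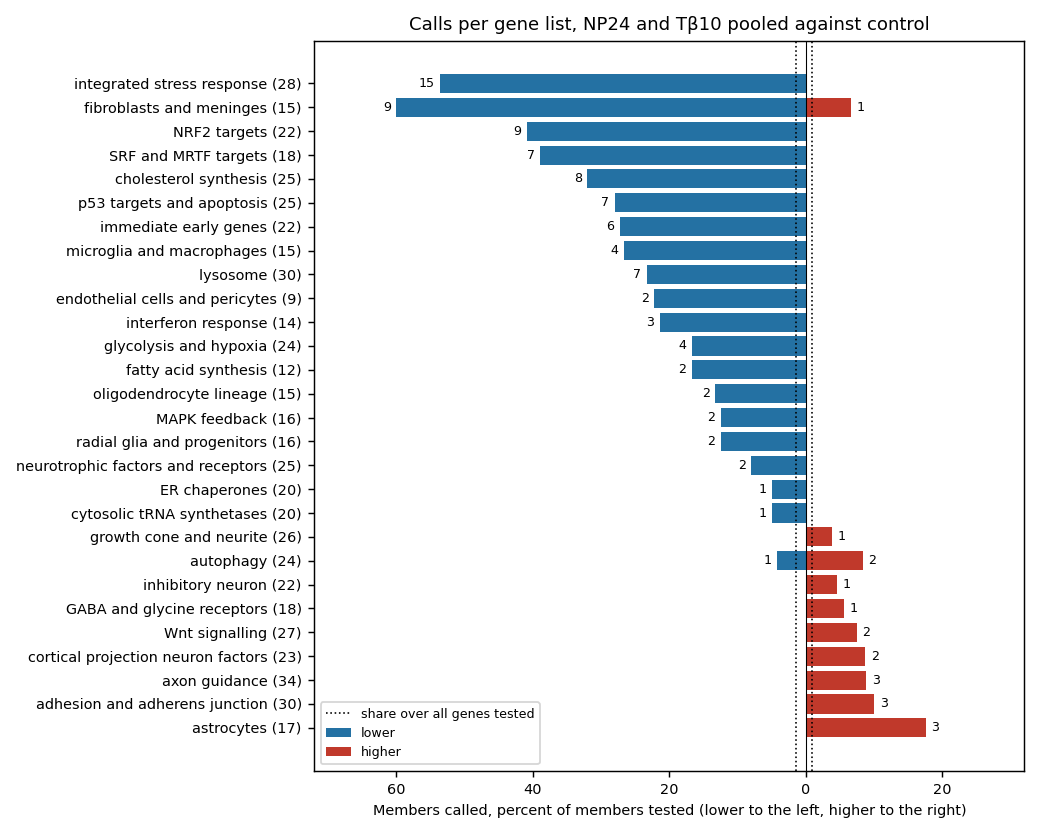
Members called lower (left, blue) and higher (right, red) as a percent of the members tested, for each gene list with at least 1 call. Numbers at the bars are counts, the number tested is in brackets, and dotted lines give the shares over all genes tested, 1.39% lower and 0.91% higher. The longest bars are those of fibroblast, stress response, NRF2 and SRF genes, all to the left.

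Astrocyte genes were among those that rose. A2m, the protease inhibitor α2-macroglobulin, and Aqp4, the water channel of astrocyte endfeet, had the largest rises of the 12 higher genes named for size. Aqp4 held 59.1, 167, 160.4 and 115 normalized counts in the controls and ran from 252 to 561 with a median of 375 with peptide, a log2 difference of 1.69 (SE 0.23, adjusted p = 2.6e-04). A2m held 12.99, 14.04, 46.7 and 46.9 and ran from 58.6 to 165 with a median of 88.7 with peptide, a log2 difference of 1.81 (SE 0.34, adjusted p = 0.0054). Neither gene's peptide libraries overlapped the controls. Of 17 astrocyte genes tested, 3 were higher and 0 lower, namely Aqp4, the bicarbonate carrier Slc4a4 (log2 difference 0.50, adjusted p = 0.008) and Gfap, the astrocyte intermediate filament (log2 difference 0.69, adjusted p = 0.034). The astrocyte list summed to 16032 to 19273 in the controls and 19113 to 21789 with peptide, and its median difference was 0.09. The astrocyte count was 1 without control library 1, 5 without Tβ10 library 1 and 2 by edgeR. Slc1a3 and Gja1, further astrocyte markers, were not called and moved in opposite directions. The median of Slc1a3 was 3639 in the controls and 4475 with peptide, and that of Gja1 was 503 and 365. Of the 17 astrocyte genes, 13 had a positive and 4 a negative difference.

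A few Wnt and adhesion genes were among the other rises, beside 0.91% of all genes tested called higher. Wif1, a secreted Wnt inhibitor, held 27.2, 46.8, 33.8 and 20.9 normalized counts in the controls and ran from 59.1 to 136 with a median of 80.9 with peptide, a log2 difference of 1.42 (SE 0.28, adjusted p = 0.0072). The ligand Wnt7b was 1.47-fold higher (log2 difference 0.56, adjusted p = 0.0042), and these were the only 2 of 27 Wnt genes called. Most of the Wnt list leaned the other way, with 9 positive and 18 negative differences and a median of -0.09. Ajap1, an adherens junction protein, held 608, 682, 767 and 628 and ran from 965 to 1452 with a median of 1193 with peptide, a log2 difference of 0.86 (SE 0.11, adjusted p = 1.8e-04). With the type II cadherins Cdh8 (log2 difference 0.65, adjusted p = 0.0037) and Cdh6 (log2 difference 0.43, adjusted p = 0.019) it made 3 of 30 adhesion genes higher and 0 lower. The adhesion list held 16 positive and 14 negative differences. Frem2, a basement membrane protein, held 391, 464, 550.4 and 501 and ran from 744 to 887 with a median of 794 with peptide, a log2 difference of 0.77 (SE 0.11, adjusted p = 2.6e-04). Its 8 peptide libraries lay within a narrow band above all controls.

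Of the other higher genes named for size, Necab1, a calcium-binding protein, held 697, 709, 1048 and 603 normalized counts in the controls. It ran from 1238 to 1491 with a median of 1310.1 with peptide, a log2 difference of 0.84 (SE 0.11, adjusted p = 2.6e-04). Prss12, the synaptic protease neurotrypsin, was 1.68-fold higher (log2 difference 0.78, adjusted p = 0.0064), and Klhl14, a Kelch protein, 2.24-fold higher (log2 difference 1.22, adjusted p = 0.001). Dnajc25 and Papss2, which makes the sulfate donor of sulfation reactions, were 2.00-fold and 2.07-fold higher. The serotonin receptor gene Htr4 ran from 50.1 to 75.4 with a median of 61.4 with peptide against 29.5, 42.1, 16.9 and 28.7, a log2 difference of 1.08 (SE 0.29, adjusted p = 0.045), and its call survived leaving out a library in 3 of 12 cases. Jakmip1, an RNA-binding protein that links microtubules and GABA-B receptors, was higher in both of its annotated gene models. The main model, named after its values were seen, held 1337, 1662, 1855 and 1373 in the controls and ran from 2086 to 2822 with a median of 2397 with peptide (log2 difference 0.66, adjusted p = 9.5e-04). A shorter model nested within it, whose exonic bases are all shared and whose counts are therefore uncertain, ran from 74.7 to 129.6 with a median of 93.2 against 47.3, 28.1, 49.2 and 41.7 (log2 difference 1.20, adjusted p = 0.0085).

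Lists of neuronal function gave scattered calls, all but those of the neurotrophic list higher, beside 0.91% higher and 1.39% lower over all genes tested. Axon guidance gave 3 of 34 higher, the semaphorin Sema3c (log2 difference 0.54, adjusted p = 0.011), the ephrin Efnb2 (log2 difference 0.36, adjusted p = 0.018) and the semaphorin receptor Plxnd1 (log2 difference 0.50, adjusted p = 0.024). Cortical projection neuron factors gave 2 of 23 higher, Cux1 (log2 difference 0.43, adjusted p = 0.0075) and Mef2c (log2 difference 0.43, adjusted p = 0.028), growth cone genes 1 of 26, Basp1 (log2 difference 0.39, adjusted p = 0.023), and GABA and glycine receptors 1 of 18, Gabra5 (log2 difference 0.43, adjusted p = 0.015). Cux1, an upper-layer factor, held 4679, 5008, 5647 and 5272 normalized counts in the controls and ran from 6061 to 7692 with a median of 7017 with peptide, with no overlap. Growth cone genes had a median of 0.15 and 22 of 26 positive, beside 11414 of 23082 over all genes tested. Axon guidance genes were 19 positive and 15 negative, but 10 positive and 24 negative with the mitochondrial covariate. Of 25 neurotrophic genes, Ntf3, which encodes neurotrophin-3, and the cytokine Clcf1 were lower (log2 difference -0.61, adjusted p = 0.015, and log2 difference -1.68, adjusted p = 0.046). Without control library 1, 1 axon guidance gene and 0 of the cortical, growth cone and GABA lists were called.

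Several programmes gave no call. Limma called 0 of 46 cytosolic ribosomal protein genes, although all 46 differences were negative with a median of -0.29, -0.23 with NP24 and -0.35 with Tβ10. Rpl11, the member with the smallest p, ran from 432 to 650.1 with a median of 532 with peptide against 822, 698, 607 and 735 (log2 difference -0.42, adjusted p = 0.053). Of the 46, 18 passed an unadjusted p of 0.05, edgeR called 1 and DESeq2 2. Limma made no call either among 31 proteasome, 35 nuclear oxidative phosphorylation, 28 synaptic vesicle, 27 glutamate receptor and postsynaptic, 26 potassium channel, 25 sodium and calcium channel, 25 actin regulator, 22 tubulin and kinesin, 17 heat shock or 22 cell cycle genes, whose list medians lay between -0.08 and 0.14. Over all 17 lists with no call in limma, 406 genes were tested, and edgeR called 4 and DESeq2 9. In limma 74 of the 406 passed an unadjusted p of 0.05, beside 3734 of all 23082 genes tested (16.2%). The genes for the β-thymosins themselves, Tmsb10 and Tmsb4x, differed by -0.04 and 0.05 (adjusted p = 0.94 and 0.92).

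Pooling brought in 145 genes that neither peptide alone had called, 69 higher (0.299%) and 76 lower (0.329%), or 210 higher and 47 lower when libraries were scaled to equal totals. Their median absolute log2 difference was 0.60, 67 were under 1.5-fold, and in 88 the libraries did not overlap. In the single fits their adjusted p had a median of 0.0726 for NP24 and 0.134 for Tβ10, and 20 were under 0.1 in both; for NP24 alone 104 were under 0.1. Pooling narrowed the median standard error from 0.199 (NP24) and 0.207 (Tβ10) to 0.181 over 21352 genes common to the fits. Few of these calls passed whichever library was left out. A median of 6 of 12 fits that left out 1 library kept them, and 1 of 145, the nested Jakmip1 model, passed in all 12, beside 109 of all 531.

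Among the higher genes of this set were membrane and signalling proteins. Cnr1, the CB1 cannabinoid receptor, held 1927, 2545, 2358 and 2040.5 normalized counts in the controls and ran from 2608 to 3383 with a median of 2938 with peptide, a log2 difference of 0.40 (SE 0.09, adjusted p = 0.021), 0.36 with NP24 and 0.44 with Tβ10. The peptide libraries of Cnr1 all lay above the controls. Usp46, a deubiquitinase, was 1.39-fold higher (log2 difference 0.47, adjusted p = 0.018), Mapre3, a microtubule end-binding protein, 1.30-fold (log2 difference 0.37, adjusted p = 0.027) and the kinase gene Dclk3 1.47-fold (log2 difference 0.56, adjusted p = 0.017). Sfxn5, a mitochondrial carrier of the sideroflexin family, held 865, 845, 878 and 874 and ran from 1043 to 1229.6 with a median of 1129.7 with peptide (log2 difference 0.38, adjusted p = 0.017). The remaining higher genes named by the rule were Spink10, Rpap3, Ppp1r3c, which targets a phosphatase to glycogen, and the sorting nexin Snx19, with log2 differences from 0.39 to 0.77.

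Lower genes of the same set came from several functions. Dll1, a Notch ligand of neural progenitors, held 638, 543, 655 and 678 normalized counts in the controls and ran from 350.4 to 571 with a median of 428 with peptide, a log2 difference of -0.56 (SE 0.13, adjusted p = 0.021), -0.54 with NP24 and -0.58 with Tβ10. Irf3, the factor that starts the interferon response to viral nucleic acid, held 254, 230.3, 258 and 335 and ran from 134 to 199 with a median of 168 with peptide, a log2 difference of -0.69 (SE 0.17, adjusted p = 0.025), -0.68 with NP24 and -0.71 with Tβ10. Mars held 1324, 1117, 1147 and 1157 and ran from 792 to 1034 with a median of 899, a log2 difference of -0.40 (SE 0.10, adjusted p = 0.028), and its libraries did not overlap. Blvrb, a biliverdin reductase downstream of heme oxygenase, was 2.18-fold lower (log2 difference -1.10, adjusted p = 0.025), Gadd45a, a growth arrest gene, 2.54-fold (log2 difference -1.27, adjusted p = 0.029) and Ddit4l, an inhibitor of mTOR signalling, 2.22-fold (log2 difference -1.06, adjusted p = 0.024). Pmp22, a myelin protein, and Slc27a3, a fatty acid carrier, were 1.68-fold and 1.64-fold lower, the axonemal dynein gene Dnaic2 2.22-fold and Tmem255b 1.61-fold. Zfp414 and Iqcg were lower too (-0.52 and -0.50 on the log2 scale) but share 30.4% and 48.1% of their exonic bases with other genes, so their counts are uncertain.

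**Figure D3:**
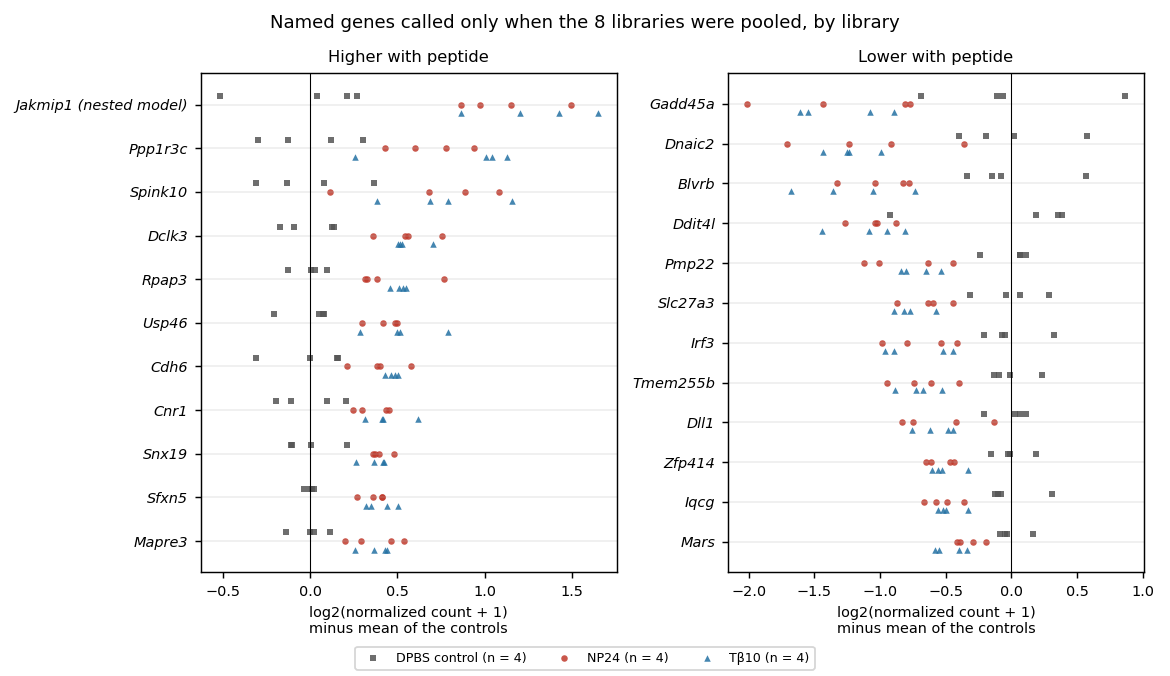
Log2 of the normalized count plus 1, minus the mean of the controls, for 11 higher and 12 lower named genes called with the 8 peptide libraries pooled and with neither peptide alone. Symbols are single libraries as in the plot of the largest differences, and some genes, such as Spink10 and Ppp1r3c, show 1 control library within the range of the peptide libraries.

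The direct comparison of NP24 with Tβ10 does not involve the controls. It called 0 of 21852 genes (0%) by limma, by edgeR and by DESeq2, and 529 (2.42%) had an unadjusted p under 0.05 in limma. Among the pooled calls tested there, 18 (3.42%) had an unadjusted p under 0.05. The design limits what this shows: the median 95% interval reached 0.46 to either side over all genes and 0.35 for the pooled calls. For 463 of these calls the whole interval lay within 2-fold, and for 347 within 1.5-fold. For Slc7a11 the difference of NP24 from Tβ10 was -0.24 (95% interval -0.57 to 0.09), for Frem2 -0.03 (95% interval -0.28 to 0.23) and for Npas4 -0.18 (95% interval -0.58 to 0.21). Bgn, a matrix proteoglycan, had the widest separation of the 24 genes with the largest changes, -1.17 (95% interval -2.24 to -0.10), with an adjusted p of 0.9998 that does not pass.

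Genes with the smallest p between the peptides are named as not passing. The kinase gene Pdk3, which restrains pyruvate dehydrogenase, was at 455 ± 69.6 normalized counts with NP24 and 324 ± 17.2 with Tβ10 (mean ± SD, n = 4 each), a difference of 0.48 (95% interval 0.15 to 0.80). Retreg1, an ER-phagy receptor that was called higher in the pooled comparison (log2 difference 0.67, adjusted p = 0.015), differed between the peptides by 0.44 (95% interval 0.14 to 0.74). Pitpnm2os2, Cfdp1, Slc25a15 and Acyp2 also leaned to NP24. On the other side, Rgs11, a regulator of G protein signalling, was at 86.1 ± 14.01 with NP24 and 174 ± 44.1 with Tβ10 (mean ± SD, n = 4 each), a difference of -0.98 (95% interval -1.49 to -0.47). Traf6, Slc30a10, Dnah3, Cdh23 and Asf1b leaned the same way as Rgs11. The adjusted p was 0.9998 for each of these 12 genes.

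**Figure D4:**
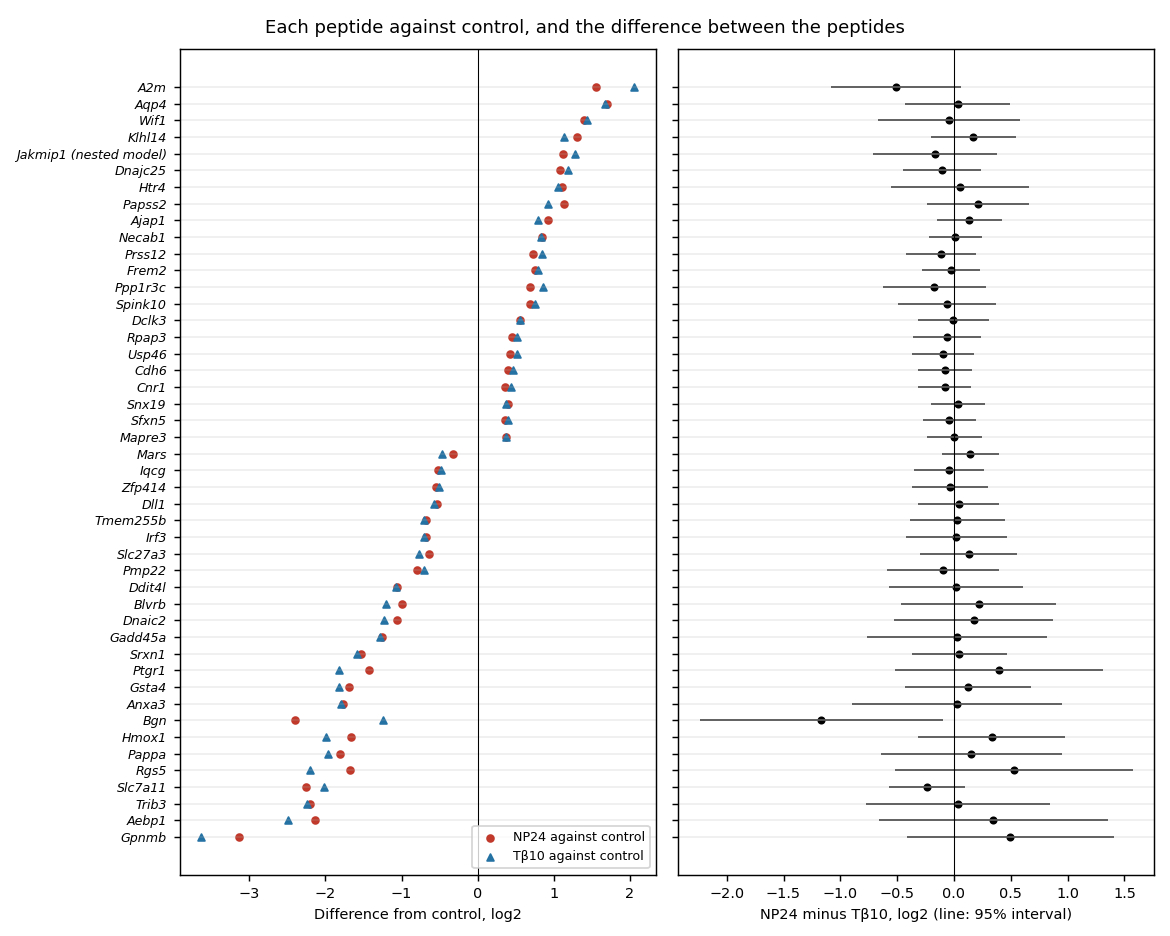
Left, log2 difference from control for NP24 (circles) and Tβ10 (triangles) in 46 genes named for the largest changes or for being called with neither peptide alone. Right, NP24 minus Tβ10 for the same genes, with lines for the 95% interval. Both peptides lie on the same side of 0 in the left panel because the naming rule required it, and in the right panel the interval of Bgn is the only one that leaves out 0.

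Cultures given Tβ4, another β-thymosin, served as a reference. Against the Tβ4 libraries the 8 pooled libraries differed in 640 of 23406 genes (2.73%), 165 higher (0.705%) and 475 lower (2.03%), and scaled to equal library totals 867 were higher and 325 lower. The Tβ4 libraries held 8.25 to 24.3% mitochondrial ribosomal RNA, beside 4.76 to 9.53% in the 8 libraries. Of the 531 genes called against the controls, 194 were also called against Tβ4 in the same direction, and Tβ4 lay on the same side of control as the pooled group in 363. The comparison against Tβ4 uses the same 8 libraries as the one against the controls. The side of Tβ4 is taken from the same 4 controls that chose the 531 genes, which favours the same side. The count of 363 is therefore no separate check that Tβ4 shares these changes. For Slc7a11 the Tβ4 difference from control was -0.65 beside -2.14 pooled, and for Npas4 0.65 beside -1.53. Ajap1 was -0.47 with Tβ4 beside 0.86 pooled, whereas Aqp4 was 1.37 beside 1.69. The pooled group differed from Tβ4 in Slc7a11, Npas4 and Ajap1 (adjusted p = 7.5e-05, 6.8e-07 and 1.2e-04) but not past the threshold in Aqp4 (0.5). The fibroblast list summed to 4855 to 9276 in the Tβ4 libraries, above its range in the 8 libraries, and its part in this comparison was not tested. Without Tβ4 library 1 the count against Tβ4 was 138, without library 4 it was 240 and without library 2 it was 1611.

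The number of pooled calls depended on single control libraries. Without control library 1 it was 142, without control library 2 it was 293 and without control library 4 it was 205, beside 330 without NP24 library 3 and 342 without Tβ10 library 3. All 531 genes kept their direction in each of these fits. Each fit shared all but 1 library with the one that chose the genes, so a kept direction was close to given. Slc7a11 (chromosome 3, 49892526.0 to 50443614.0), Npas4 (chromosome 19, 4984355.0 to 4990316.0) and Ajap1 (chromosome 4, 153373221.0 to 153482811.0, all GRCm38 by GENCODE M21) passed in all 12. Of the 24 genes with the largest changes, 19 passed in all 12 fits, among them Slc7a11, Trib3, Gpnmb, Hmox1, Aqp4, Ajap1, Necab1 and Frem2. These 24 were themselves chosen from the same libraries for large differences without overlap. Rescaled to equal library totals, the calls numbered 581 higher and 240 lower, and the median of all genes moved by 0.07 on the log2 scale. Other scalings kept more lower than higher calls, with 210 higher and 327 lower by TMM, 193 and 369 by edgeR and 438 and 556 by DESeq2.

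**Figure D5:**
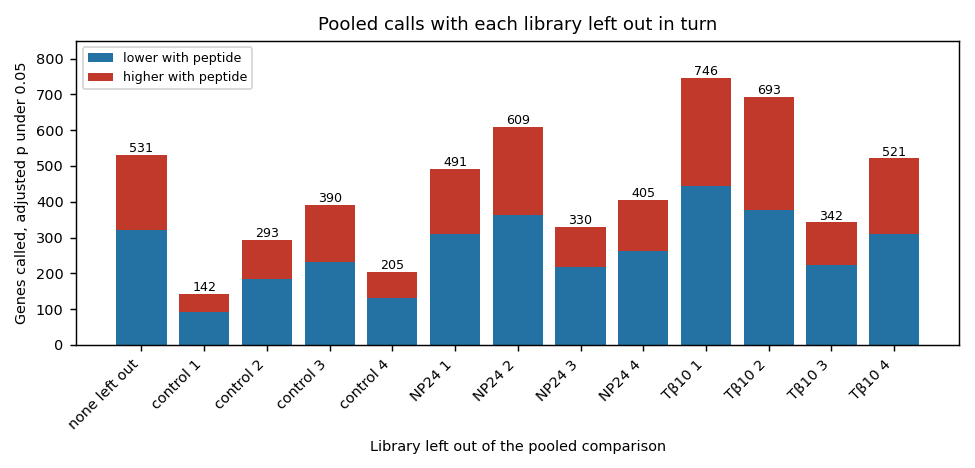
Genes called at an adjusted p under 0.05 in the pooled comparison with no library left out (531) and with each of the 12 libraries left out in turn, split into lower (blue) and higher (red). The count is lowest without control library 1 (142) and highest without Tβ10 library 1 (746).

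Gene length, biotype and level of the called genes were set beside those of all genes. Higher genes spanned a median of 59050 bases of genome, against 16490 for lower genes and 15320 for all genes tested, by GENCODE M21 positions. Their median exonic length was 4768 bases, with 4028 for lower genes and 3123 for all. Protein-coding genes made up 81.9% of the higher and 86.9% of the lower genes, beside 65.7% of all tested, and the median level was 783 and 337 normalized counts, beside 169 over all. With the slope of each library on exonic length as a covariate, an alternative chosen after seeing the data, 488 genes were called. Of the 531 pooled calls, 427 were among them. Genomic span was not used in that fit.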

How the data were processed

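Total RNA of the 16 cultures was extracted with the RNeasy Micro Kit and libraries were made from it (SMARTer Stranded Total RNA-Seq Kit v2), per the labels' protocols. FastQC, HISAT and HISAT2, featureCounts and DESeq2 on GRCm38 are named per the submitters' processing notes; versions and the strand setting are not given in the sources used here. The authors deposited a signal table of normalized counts, gene counts divided by a size factor per library. Whole reads could be recovered from its steps (99.92 to 99.99% of values within 0.01 reads), and gave library totals of 11642242 to 38254320; intervals cover the spread between libraries only.

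Log2(value + 1) was tested with limma 3.58.1 (R 4.3.3) for 8 peptide against 4 control libraries, over 23082 of 45724 genes that reached 10 normalized counts in 4 or more libraries, with Benjamini-Hochberg adjustment at 0.05. All log2 differences are on that scale, which understates changes of low genes. Each peptide against control, NP24 against Tβ10 and the pooled libraries against Tβ4 were fitted alike. As count tests of the recovered reads, edgeR 4.0.16 called 562 genes in the pooled comparison and DESeq2 1.42.0 called 994. Other alternatives were the pseudocount, no filter, scaling, a replicate block, a shared spread, a covariate and leaving out each library. Scaling by TMM and an exonic length covariate were added after seeing the data. The code was tested on simulated data.

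Genes were named by rule: up to 12 per direction with the largest called difference and no overlap, up to 12 per direction called only when pooled, up to 6 per direction between the peptides (all with a mean of at least 50), in each list the 5 smallest p-values, and both thymosin genes. Some genes that the rule names are not reported here. Members and lists were chosen with earlier results of these data known. No 2 libraries of a group matched within counting noise (chi-square per degree of freedom 8.94 to 89.7), so none was merged as 1 library deposited again; this does not show that they came from separate cultures. Gene positions came from GENCODE M21 and promoters from RefSeq (GRCm38.p6).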

Additional observations from a re-analysis of the deposited data

Results flagged for a closer look

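A group of libraries is listed here where its highest or lowest value stood apart from the others by Dixon's ratio at the 95% level, which chance alone does for about 1 in 20 groups. Of 316 groups looked at, over 155 genes and the library measures, 22 were listed. Among the controls, Mbp was at 4235 normalized counts in control library 3 against 4951 to 5060.0 in the others. Sphkap was at 1098 normalized counts in control library 3 against 756 to 799.6 in the others. Tshz2 was at 1656 normalized counts in control library 1 against 1431 to 1444 in the others. Usp46 was at 495 normalized counts in control library 4 against 592 to 603 in the others. Btg2 was at 834 normalized counts in control library 1 against 643 to 669 in the others. Spry2 was at 483 normalized counts in control library 1 against 623 to 642 in the others. Stat2 was at 472 normalized counts in control library 3 against 525 to 535 in the others. Iqcg was at 599.9 normalized counts in control library 4 against 446 to 459 in the others. Acyp2 was at 309 normalized counts in control library 3 against 287 to 289 in the others. Pdgfrb was at 262 normalized counts in control library 4 against 201 to 208 in the others. Pmp22 was at 154 normalized counts in control library 4 against 190.1 to 197 in the others. Ddit4l was at 68.5 normalized counts in control library 3 against 149.5 to 171 in the others. Clcf1 was at 45.9 normalized counts in control library 3 against 109 to 117 in the others. Among the 8 peptide libraries, Slc1a3 was at 3426 normalized counts in Tβ10 library 1 against 4221 to 5063 in the others. Tox2 was at 807 normalized counts in Tβ10 library 2 against 1030.0 to 1233 in the others. Usp46 was at 985 normalized counts in Tβ10 library 2 against 696 to 815 in the others. Abcc4 was at 465.6 normalized counts in Tβ10 library 4 against 293 to 358 in the others. Slc2a1 was at 158 normalized counts in NP24 library 1 against 255 to 355 in the others. Ahnak was at 282 normalized counts in NP24 library 2 against 97.8 to 153 in the others. Bgn was at 8.34 normalized counts in NP24 library 1 against 34.8 to 109 in the others. Atf3 was at 109.8 normalized counts in NP24 library 2 against 17.1 to 28.9 in the others. Reads in genes numbered 38254320 in Tβ10 library 1 against 11642242 to 23363145 in the other peptide libraries.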

How the results depend on the processing

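All 531 pooled calls kept their direction under every alternative run, each using the same libraries or all but 1 of them. Their number was 300 with no filter on low values, 821 with libraries scaled to equal totals, 994 by DESeq2, 259 with 1 spread estimated over 16 libraries, 2 with the mitochondrial rRNA share as a covariate and 165 at an adjusted p of 0.01. Leaving out 1 library gave 142 to 746. Genes called with neither peptide alone numbered 75 with no filter and 257 with equal totals, and 41 to 231 with 1 library left out. NP24 alone gave 365 with no filter, 1178 by DESeq2 and 133 to 757 with 1 library left out, and Tβ10 alone gave 432 by DESeq2 and 29 to 320. Against Tβ4 the count was 1192 with equal totals, 1352 by DESeq2 and 138 to 1611 with 1 library left out. Calls over the gene lists ranged from 47 to 139, and NP24 against Tβ10 gave 0 throughout. With the replicate number as a block the pooled count was 480, NP24 alone 477, Tβ10 alone 91, genes called with neither 148 and NP24 against Tβ10 0. Same-numbered libraries correlated at -0.10 to 0.11 and 3 of 12 correlated best with their own number, so the numbers were not taken as pairs. The cause of these changes was not tested. Depth limits the genes of low level, for which 1 library can decide a call.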

Other observations

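The genes below are called genes outside the naming rule, chosen here after their values were seen. They were picked from the calls, so they give no separate support to the groups described. Nfe2l2, which encodes NRF2 itself, held 397, 355, 281 and 354 normalized counts in the controls and ran from 131 to 221 with a median of 181 with peptide (log2 difference -0.94, adjusted p = 0.0016). The stress response factor Atf5 (log2 difference -1.05, adjusted p = 0.0034), the mitochondrial enzyme Pck2 (log2 difference -1.13, adjusted p = 9.8e-04) and the metal-binding Mt1 (log2 difference -1.09, adjusted p = 0.0017) were lower as well. Spp1, osteopontin, and Ahnak, a large scaffold protein, were 5.74-fold and 2.89-fold lower. The nuclear noncoding RNA Neat1 and the imprinted H19 were 2.01-fold and 2.32-fold lower, and Cpeb1, which regulates translation of stored mRNA, was 2.34-fold lower.

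Among further higher genes, Slc6a11, the GABA carrier GAT3 of astrocytes, held 1177, 1438, 1613 and 1469 normalized counts in the controls and ran from 1874 to 2508 with a median of 2159.8 with peptide (log2 difference 0.61, adjusted p = 0.0011). Ptn, the growth factor pleiotrophin, was 1.43-fold higher (log2 difference 0.52, adjusted p = 0.0016) and Prickle1, a planar polarity gene, 1.61-fold higher (log2 difference 0.68, adjusted p = 5.6e-04). Eif4e, the cap-binding translation factor, was 1.45-fold higher (log2 difference 0.53, adjusted p = 0.0017).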
